A study of Arabidopsis halleri subsp. gemmifera and Arabidopsis thaliana with 4 samples.

Results

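At 12 loci, A. halleri roots and A. thaliana roots had at least 80% of their model-specific reads on different transcript models of the same gene. The loci were found among 33602 in the tables. Of the 5885 loci with 2 or more models, 1142 had at least 100 unique reads in each of the 4 libraries, a unique read being a read counted on a single model. A locus was kept where 1 model held at least 80% of the unique reads in both A. halleri libraries and another model held at least 80% in both A. thaliana libraries, which 12 of the 1142 did (1.05%). The 4 loci that the rule sets aside by name did not meet it. The members were thus chosen by their shares of unique reads, which are given as a description and are not tested.

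The series has 2 libraries of roots of Arabidopsis halleri ssp. gemmifera, a metal hyperaccumulating relative of A. thaliana, and 2 of roots of A. thaliana, labelled biological replicates 1 and 2 of a control condition. All plants were kept in the same half-strength hydroponic Hoagland solution, with zinc given as ZnSO4 at 0.8 µM, iron as NaFeEDTA at 10 µM and copper as CuSO4 at 0.3 µM. The labels give no plant age, accession or number of plants per library. Since the models are those of A. thaliana also for the other species, an A. halleri read assigned to a model is a read that matched that model best. Whether it was spliced in the plant as the model is, or carries a difference of the A. halleri genome at that place, cannot be told apart here.

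Transcript models of a locus differ in where introns begin and end, or in where the transcript starts and stops. The spliceosome cuts an intron at a donor site, nearly always GT, and joins it at an acceptor site, nearly always AG. Where 2 such sites lie a few bases apart, as in tandem acceptors of the form NAGNAG, the same gene can give messages that differ by a few bases. Such a shift in the 5′ untranslated region (UTR) leaves the protein as it is, and a shift of 3 coding bases adds or removes an amino acid.

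In the TAIR10.1 annotation the main models of 10 of the 12 loci differed by a splice site moved by at most 12 bases. The sites are shown because they are the annotated differences inside the transcripts, to which differences at the transcript ends can add. Each window has 30 bases of the A. thaliana reference on the gene's strand, from RefSeq TAIR10.1. Capitals mark the bases that are exon in 1 main model and intron in the other.
SAM1, acceptor, chr1:519020-519049, plus strand: ctattctttgtagCAGaatggagacttttc
AT2G22425, acceptor, chr2:9515060-9515089, plus strand: tttcgttgtgtagAAGaaaatggattggca
AT1G62790, acceptor, chr1:23253371-23253400, plus strand: tctaaatattcagCAGggaataccaaaaaa
GRF9, acceptor, chr2:17732252-17732281, minus strand: gcatttgtgtgcagGAGacgatgctcataa
AT5G46430, acceptor, chr5:18833402-18833431, plus strand: tgattttgttgagGAAGaggagtaaaaatg
UBC30, acceptor, chr5:22729722-22729751, plus strand: tttgttcctagCTAGCAGaagctaggacta
AT1G77350, acceptor, chr1:29070473-29070502, plus strand: attgtttagTTTGGATTTAGaagcatggca
RSZ22, donor, chr4:15306755-15306784, plus strand: ctcttcccacaagGTAGgtcgcaaccaagt
UBC22, donor, chr5:1500586-1500615, minus strand: tgggcaagaagGCAAGAACgtatgttgaga
AT3G01340, donor, chr3:128871-128900, minus strand: ataccagagGTTCGTAACGATgtgagattt
The capitals were exon in the main model of A. halleri at SAM1, AT5G46430, RSZ22 and AT3G01340, and in that of A. thaliana at the other 6 loci. The first 4 windows hold NAGNAG, read on the gene's strand, as AG acceptors 3 bases apart must. Among all 9001 annotated introns of the 1142 loci, 7.53% have NAGNAG at the acceptor, whether or not both sites are annotated. That share is counted in another way and is no comparison for the 4 windows.

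**Figure D1:**
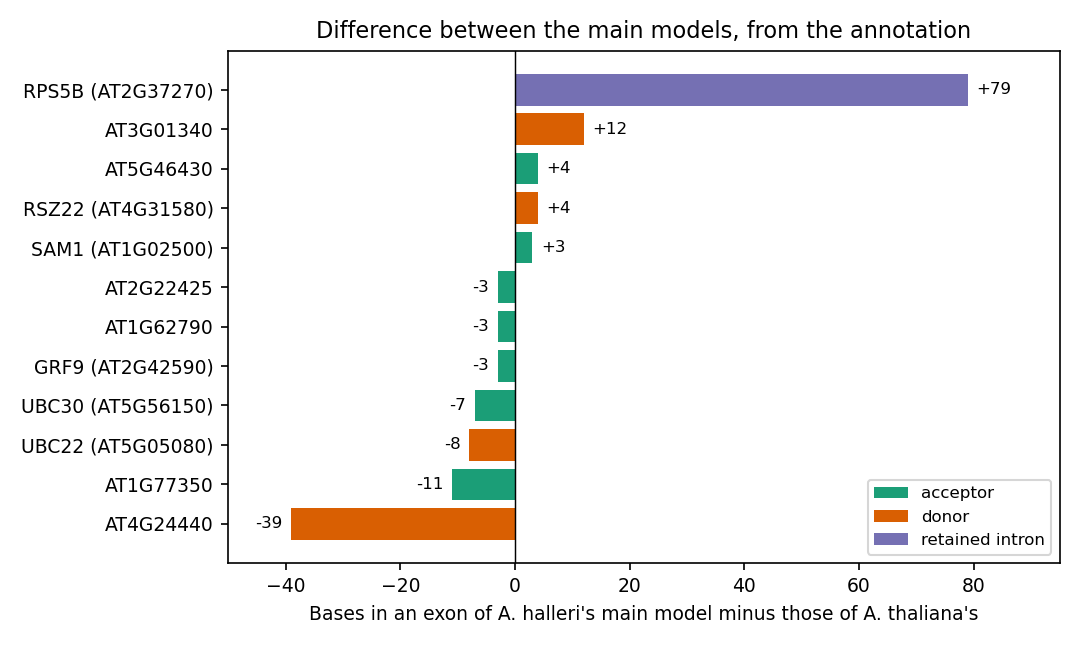
Bases that lie in an exon of A. halleri's main model minus those of A. thaliana's main model (horizontal axis) at each of the 12 loci, coloured by the kind of difference. Values run from -39 at AT4G24440 to +79 at RPS5B, and 10 loci lie within 12 bases of 0. The annotated 264-base difference of UBC30 is not drawn.

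In every member the main model was the one numbered 2 in A. halleri and the one numbered 1 in A. thaliana. Model 1 also led at most other loci. Of 1125 loci with 1 main model per species, it was the main one at 934 in A. thaliana and at 916 in A. halleri. At 11 of the 12 members there were 2 models, so that only 1 other model could lead. Over the 12 loci, A. halleri's main model held 82.2% to 100% of the unique reads in A. halleri libraries (median 99.5%) and 0% to 16.2% in A. thaliana libraries (median 7.01%). The gap between species means ran from 73.9 to 100 percentage points, against at most 8.45 points between 2 libraries of a species. The number of unique reads behind a share ran from 113 to 3307. Below, the form of a species is the A. thaliana reference model that led in it. Bases and protein lengths are those of that reference model. Intervals below are exact (Clopper-Pearson) 95% intervals and, like the limits for a count of 0, cover counting error only, since reads copied by PCR are not independent molecules.

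**Figure D2:**
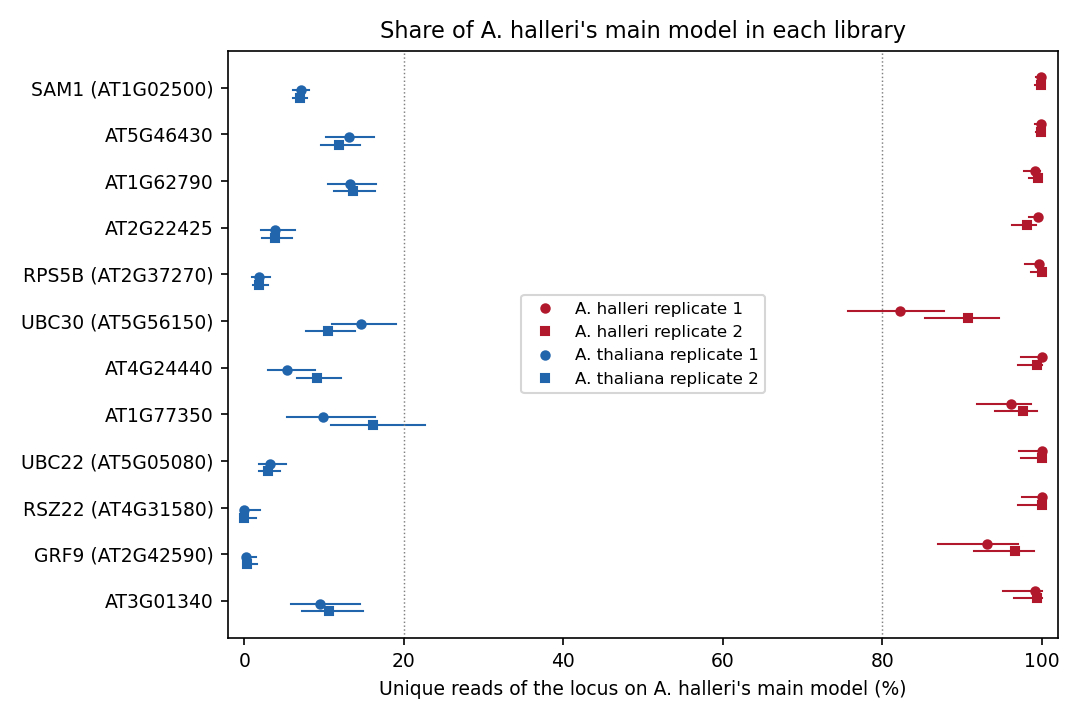
Share of a locus's unique reads on A. halleri's main model (horizontal axis, %) in each library, for the 12 loci from the most to the fewest unique reads in the lowest library. Points are libraries, bars are exact 95% binomial intervals, and dotted lines mark 80% and 20%; in the A. halleri libraries the points lie from 82.2% to 100%, and in the A. thaliana libraries from 0% to 16.2%.

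SAM1 (AT1G02500), which makes S-adenosylmethionine from methionine and ATP, had the most unique reads. Its model 2 held 760 of 761 and 640 of 641 unique reads in A. halleri, against 185 of 2608 and 229 of 3307 in A. thaliana. That is 99.9% and 99.8% in A. halleri, against 7.09% (interval 6.14% to 8.15%) and 6.92% in A. thaliana. In the SAM1 window the main model of A. halleri starts its second exon at the upstream AG and keeps the 3 bases CAG, close before the start codon, while that of A. thaliana leaves them out. The protein is the same, with 393 amino acids.

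AT2G22425 is annotated as the SPC12 subunit of signal peptidase, the complex that removes signal peptides from secreted proteins. Its model 2 held 430 of 432 and 372 of 379 unique reads in A. halleri, against 14 of 362 and 17 of 446 in A. thaliana. The shares were 99.5% and 98.2% in A. halleri libraries and 3.87% and 3.81% in A. thaliana libraries. In the window the A. halleri form uses the downstream AG and lacks AAG, 3 bases of the 5′ UTR.

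The other pair of NAGNAG acceptors lies in coding sequence. AT1G62790, of a family of lipid-transfer and protease-inhibitor proteins, had 462 of 466 and 444 of 446 unique reads on model 2 in A. halleri, against 71 of 534 and 98 of 717 in A. thaliana (13.3% and 13.7%). The form read in A. halleri lacks the 3 bases CAG and codes for 149 amino acids, against 150 in the form that led in A. thaliana. GRF9 (AT2G42590) is a 14-3-3 protein, of a family that binds phosphorylated partner proteins. It had 109 of 117 and 113 of 117 unique reads on model 2 in A. halleri, against 1 of 365 and 1 of 357 in A. thaliana. The A. halleri form lacks GAG and codes for 262 amino acids in the A. thaliana reference, against 263. GRF9 is the member with 3 models, and its model 3 had 0 of 117 in each A. halleri library, which allows up to 2.56%, and 5 of 365 and 2 of 357 in A. thaliana.

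A pair of ribosomal protein genes was among the members. AT5G46430, a protein L32e of the large subunit, had 613 of 614 and 738 of 739 unique reads on model 2 in A. halleri, against 67 of 512 and 85 of 716 in A. thaliana (13.1% and 11.9%). Its A. halleri form keeps the 4 bases GAAG of the 5′ UTR. RPS5B (AT2G37270), a protein of the small subunit, had 258 of 259 and 281 of 281 unique reads on model 2 in A. halleri, against 12 of 647 and 18 of 970 in A. thaliana (1.85% and 1.86%). It is the member that differs by a retained intron. The 79 bases from 15649045 to 15649123 of chromosome 2, on the minus strand in the 5′ UTR, are exon in the form read in A. halleri and are removed in the form that led in A. thaliana.

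Both ubiquitin-conjugating enzymes among the members carry activated ubiquitin on its way to target proteins. UBC22 (AT5G05080) had all 124 and all 139 unique reads on model 2 in A. halleri, against 16 of 489 and 20 of 675 in A. thaliana (3.27% and 2.96%). Model 1 of UBC22 thus had 0 unique reads in either A. halleri library, which allows up to 2.42% and 2.16%. In the window its A. halleri form ends the exon 8 bases earlier, at a GC in the reference, and the other form at GT. All other differing introns of the 12 loci begin with GT, and every one ends with AG. UBC30 (AT5G56150) was the member nearest the threshold, with 139 of 169 and 156 of 172 unique reads on model 2 in A. halleri, against 48 of 327 and 43 of 410 in A. thaliana. The A. halleri share of UBC30 was 82.2% (interval 75.6% to 87.7%) in replicate 1 and 90.7% (85.3% to 94.6%) in replicate 2, the largest gap between libraries of a species among the 12.

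UBC30 also has a second annotated difference, an exon of model 2 that runs 264 bases further, and with it 111 amino acids in place of 148. The deposited model 2 is just 264 bases shorter than the annotated one, so that the counted model may lack it. The 7 bases of the UBC30 window are then the difference inside the counted models.

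The remaining members act in transcription and splicing or have less well described roles. RSZ22 (AT4G31580), a serine/arginine-rich splicing factor, was the member with no mixture at all. Its model 2 had all 145 and all 122 unique reads in A. halleri, against 0 of 181 and 0 of 240 in A. thaliana. The zeros of RSZ22 allow shares of up to 1.66% and 1.25% in A. thaliana, and for model 1 up to 2.07% and 2.46% in A. halleri. In the window the donor lies 4 bases further down in the A. halleri form, so that GTAG becomes exon.

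AT4G24440, the gamma subunit of the general transcription factor TFIIA, had 136 of 136 and 180 of 181 unique reads on model 2 in A. halleri, against 14 of 259 and 40 of 440 in A. thaliana (5.41% and 9.09%). Its A. halleri form uses a donor 39 bases upstream, so that bases 12633290 to 12633328 of chromosome 4, in the 5′ UTR, fall into the intron. AT3G01340, annotated as a WD40 repeat protein, had 112 of 113 and 155 of 156 on model 2 in A. halleri, against 19 of 199 and 29 of 273 in A. thaliana (9.55% and 10.6%). Its A. halleri form keeps 12 more bases of 5′ UTR. AT1G77350, annotated as a keratinocyte-associated-like protein, had 150 of 156 and 167 of 171 on model 2 in A. halleri, against 13 of 131 and 27 of 167 in A. thaliana. Its A. thaliana share was 9.92% in replicate 1 and 16.2% in replicate 2, and its A. halleri form lacks 11 bases of 5′ UTR.

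The minor model was read in both species at most members. In A. thaliana the model that led in A. halleri had at least 1 unique read in both libraries at each member except RSZ22. In A. halleri the model that led in A. thaliana had from 0% to 17.8% of the unique reads (median 0.456%). It reached 30 and 16 reads at UBC30 and 8 or fewer at each other member.

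Loci near the 80% line show how the rule cuts. The lowest main-model share of any library was 82.2% at UBC30, 83.8% at AT1G77350, 86.3% at AT1G62790 and 86.9% at AT5G46430. Just outside, it was 76.1% at AT5G46780, a VQ motif protein, 75.1% at RAP2.2 (AT3G14230), an ethylene response factor, 75.0% at AT3G30390, an amino acid transporter, and 70.3% at EBS1 (AT1G71220). RAP2.2 has the order of models the other way round, with model 1 leading in A. halleri and model 2 in A. thaliana.

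Most loci read the same main model in both species. Of the 1142 loci, 946 had a model of at least 80% in all 4 libraries, and in 934 of these it was the same model. The leading model differed at any share in 42 loci (3.68%), the 12 members and 30 others. In the 30 others model 2 led in A. halleri and model 1 in A. thaliana at 16, and the reverse held at 11. Between the 2 libraries of a species the leading model differed in 11 loci for A. halleri and in 8 for A. thaliana, and in 0 of these did both libraries have a share of at least 80%. The median difference between the species in the share of the locus's main model was 0.857 points over the 1142 loci, against 0.351 points between the A. halleri libraries and 0.518 points between the A. thaliana libraries. A difference of at least 50 points was found at 27 loci between the species, the 12 members among them.

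**Figure D3:**
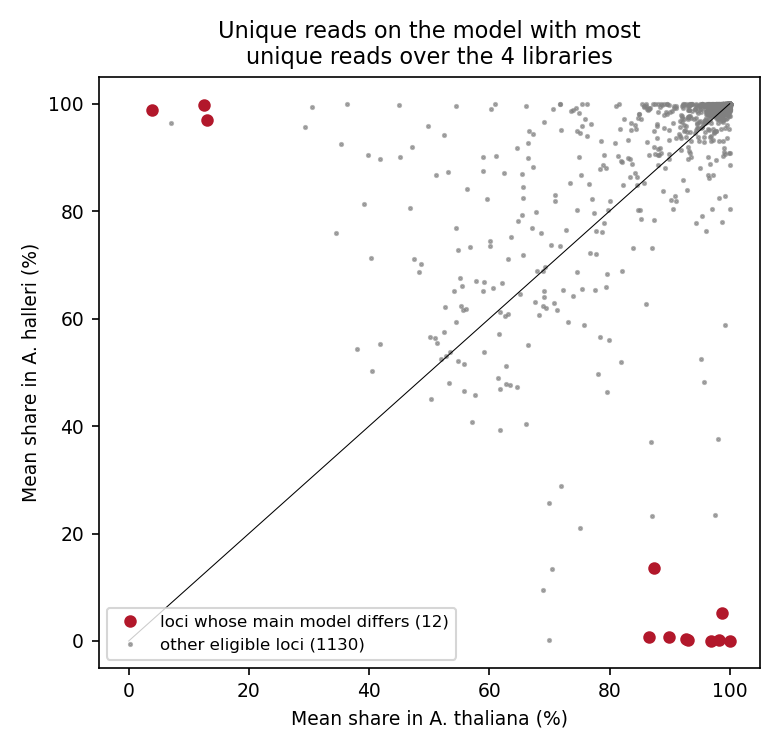
Mean share of unique reads on the model with the most unique reads over the 4 libraries, in A. halleri (vertical axis, %) against A. thaliana (horizontal axis, %), for 1142 loci; the line marks equal shares. The 12 members (large points) lie at the upper left or the lower right, and 1130 other loci are drawn as small points.

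Several annotated features of the members were not named in the rule, though shares of unique reads depend on where the models differ. A splice site shift of at most 12 bases separated the models in 10 of 12 members (83.3%), 13 of the 30 loci whose leading model differed at lower shares (43.3%) and 243 of 1090 other loci with an annotated pair of models (22.3%). At those other loci the pair compared was the 2 models with the most unique reads, of which the second may have few. Such pairs are not like those of the members. Of the 10 small shifts, 7 were at acceptors and 3 at donors, and A. halleri's form had more exon bases in 4 and fewer in 6. An acceptor moved by 3 bases was found in 4 of 12 members (33.3%), 5 of 30 (16.7%) and 77 of 1090 (7.06%). The internal differences lay wholly in the 5′ UTR in 9 of 12 members (75%), 7 of 30 (23.3%) and 132 of 1090 (12.1%), and 9 of 12 members kept the same coding sequence, against 12 of 30 and 181 of 1090 (16.6%). These are counts without a test, and the loci kept for them are those whose models differ enough to give 100 unique reads. UBC30 is counted with its annotated 264-base difference in coding sequence, which the counted model may lack.

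**Figure D4:**
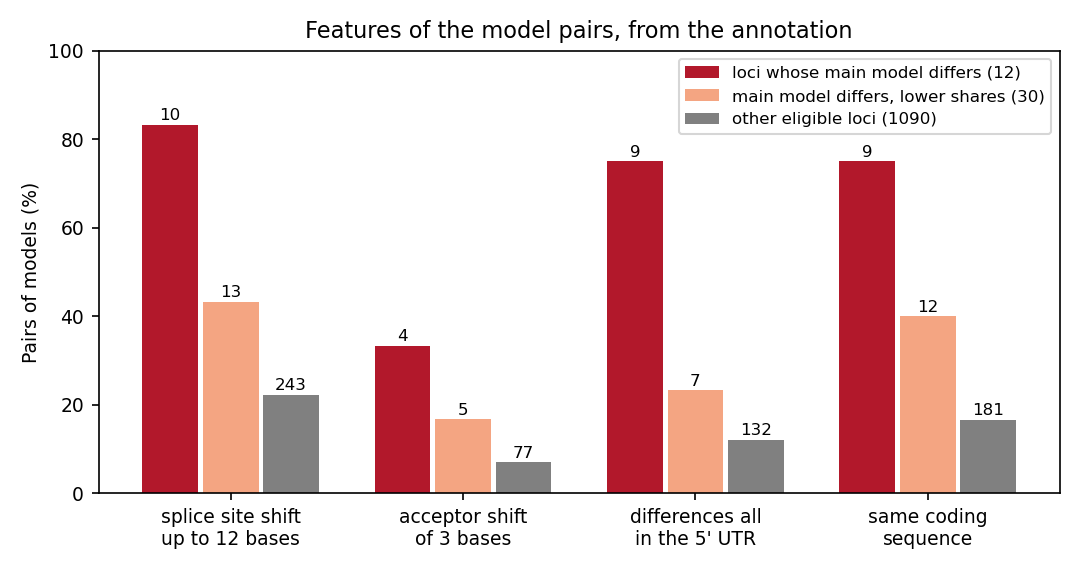
Share of model pairs (vertical axis, %) with each of 4 annotated features, in the 12 members, in 30 loci whose leading model differs at lower shares and in 1090 other loci; numbers over the bars are loci. A shift of at most 12 bases was found in 83.3%, 43.3% and 22.3% of pairs.

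The annotation is a later release than the counted models, which limits what can be read from it. Of the 24 main models 10 had the deposited length and 14 were shorter as deposited, by 12 to 798 bases. At GRF9, AT4G24440 and AT5G46430 the deposited lengths differed by just the bases inside the transcript. At 8 other members a further 3 to 48 bases were left over. They may lie at the transcript ends or where the releases differ inside the transcript, and can also yield unique reads. The remainder was 48 bases at RSZ22, 44 at AT2G22425 and 36 at AT1G77350. It was 28 at UBC22, 21 at AT3G01340 and 8 at AT1G62790. At each of these it was more than the site shift. At SAM1 it was 3 bases, as many as the shift, and at RPS5B 3 bases against an intron of 79. At UBC30 the annotated 264-base extension adds to the remainder.

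The part of a locus that was counted uniquely varied among the members. Its median share of a member's total reads was 22.1% and 20.7% in the A. halleri libraries and 21.5% and 23.0% in the A. thaliana libraries, near the 22.4% to 23.3% over the 1142 loci. AT2G22425 was at 59.2% and 52.4% in A. halleri and at 40.9% and 37.6% in A. thaliana, while SAM1, RPS5B, UBC22, GRF9 and AT3G01340 were at or below 11.7% in A. halleri. The deposited total reads of a model, which include shared reads, divided between the models nearly as the unique reads did. The share of A. halleri's main model in total and in unique reads differed by a median of 0.322 points and at most 4.96, so the totals and the RPKM values of single models are no separate measurement of model use.

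Totals over all models of a locus were compared between the species with edgeR's quasi-likelihood test. The contrast is the same as the rule's, so the members' calls are a description. Of 20899 loci tested 72.5% were called, 35.7% higher and 36.8% lower in A. halleri. All 12 members were tested, of which 1 was called higher, 7 lower and 4 not (median log2 -0.42, against -0.01 over all loci). In bulk roots, less RNA per cell cannot be told apart from fewer cells that make it. Nor can it be told apart from A. halleri reads left uncounted because they differ from the A. thaliana models.

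SAM1 had the largest member difference, with 521 and 519 CPM (reads scaled to library depth, with TMM factors) in A. halleri, against 1110 and 1082 CPM in A. thaliana (log2 -1.08, SE 0.09). UBC22 had 95.3 and 91.8 CPM in A. halleri, against 175 and 172 CPM in A. thaliana (log2 -0.89, SE 0.08). GRF9 had 63.0 and 63.3 CPM in A. halleri, against 112 and 110 CPM in A. thaliana (log2 -0.81, SE 0.08). The A. halleri libraries lay below both A. thaliana libraries in these 3. At every other member, called or not, the libraries of the species were also apart, in either direction. How often that holds over all loci was not counted, so it is not read as a trait of the members.

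UBC30 (log2 -0.68, SE 0.10), AT4G24440 (log2 -0.65, SE 0.12), RSZ22 (log2 -0.52, SE 0.09) and RPS5B (log2 -0.31, SE 0.09) were also called lower. The call of RPS5B was lost when replicate 1 of A. halleri or replicate 2 of A. thaliana was left out, and that of RSZ22 with unique reads in place of total reads (log2 -0.34). Unique reads gave larger differences for SAM1 (log2 -1.76), UBC22 (log2 -1.82), GRF9 (log2 -1.32) and RPS5B (log2 -1.25). AT1G77350 was called higher, at 31.5 and 33.9 CPM in A. halleri against 27.1 and 27.6 CPM in A. thaliana (log2 0.26, SE 0.10), and its call was lost when any of the 4 libraries was left out. AT1G62790 had 74.2 and 76.1 CPM in A. halleri and 77.9 and 77.1 CPM in A. thaliana (log2 -0.04, SE 0.08). Its difference in model thus came with totals that were not called. AT2G22425 (log2 -0.22, SE 0.09), AT3G01340 (log2 0.25, SE 0.13) and AT5G46430 (log2 0.22, SE 0.10) were not called either. Without replicate 1 of A. halleri, AT3G01340 (log2 0.43) and AT5G46430 (log2 0.31) were called higher, and without replicate 2 of A. halleri AT3G01340 stood at log2 0.07 and AT5G46430 at log2 0.15. With unique reads AT2G22425 (log2 0.32) and AT5G46430 (log2 0.47) were called higher, while AT3G01340 was at log2 -0.48 and not called.

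**Figure D5:**
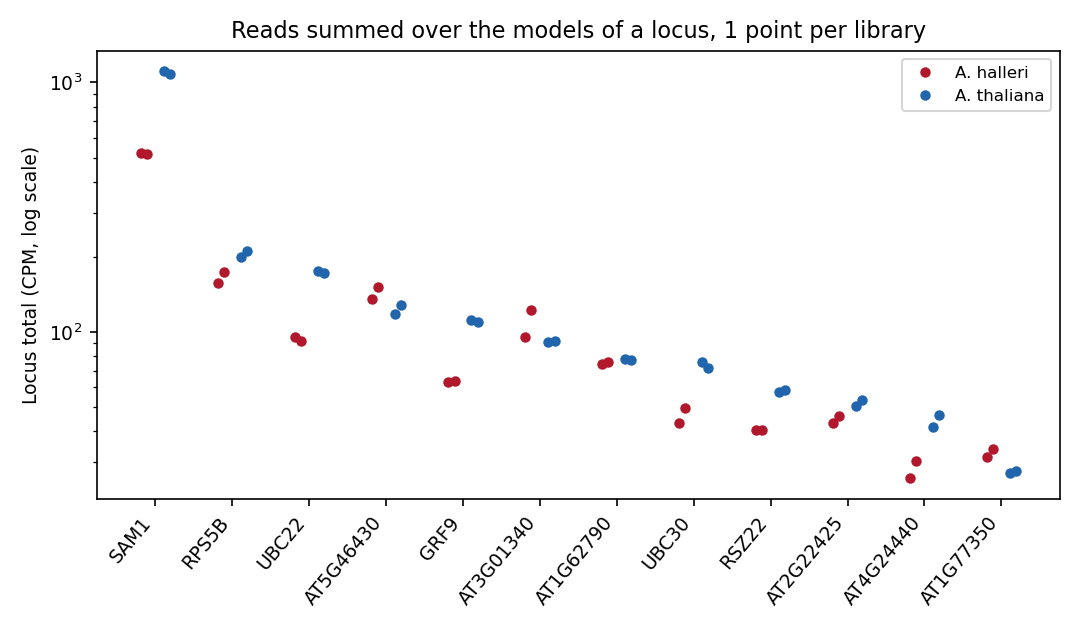
Reads summed over all models of each of the 12 loci (vertical axis, CPM on a log scale), 1 point per library, with A. halleri left of A. thaliana at each locus. SAM1 stands at 521 and 519 CPM in A. halleri and 1110 and 1082 CPM in A. thaliana, and AT1G62790 at 74.2 and 76.1 CPM in A. halleri and 77.9 and 77.1 CPM in A. thaliana.

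Totals of genes with close relatives are uncertain, since reads of A. halleri may be counted on either copy. The transcript of SAM1 aligns to that of its paralog SAM-2 (AT4G01850) with 88.2% identical bases, over 70.4% of the shorter of the pair. SAM-2 had 18460 and 18490 reads in A. halleri libraries, against 6370 and 9041 in A. thaliana libraries. RSZ22 has 78.6% identity over 76.7% with RSZ22a (AT2G24590), which had 1791 and 1575 reads in A. halleri libraries, against 535 and 658 in A. thaliana libraries. RPS5B (85.0% with RPS5A), AT5G46430 (88.6% with AT4G18100), AT3G01340 (83.7% with AT2G30050) and AT2G22425 (80.7% with AT4G40042) also have relatives. So do UBC30 (78.85% over 45.1%, with UBC29), AT1G62790 (78.05% over 30.4%, with AT1G70250) and GRF9 (74.0% over 54.6%, with GRF10). Identity is given as a percent of aligned bases. For AT1G77350, AT4G24440 and UBC22 the search found none. The part of reads from relatives in the totals and in the model shares was not tested. In the annotation AT1G62790 overlaps AT1G08563 by 237 bases and ASP4 by 41, AT2G22425 overlaps AT2G00740 by 295, UBC22 overlaps AT5G05070 by 107 and GRF9 overlaps TTL3 by 7, each on the other strand. AT5G46430 overlaps AT5G06825 by 77 bases on its own strand. The strand setting of the counting is not given in the sources used here.

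Genes of the machinery that makes and clears transcript variants were called no more often than loci at large, of which 72.5% were called. Among 25 tested splicing factor genes, A. halleri had 5 called higher, 11 called lower and 9 without a call (median log2 -0.18). Of 6 polyadenylation genes 2 were higher, 1 lower and 3 not called, and of 4 genes of nonsense-mediated decay, which removes faulty messages, 1 was higher, 1 lower and 2 not called. Over all loci 35.7% were called higher and 36.8% lower, so these counts are read as no property of the lists. Of the splicing factors 8 had enough unique reads to be judged, and RSZ22 was the member among them. SC35 (AT5G64200), another serine/arginine-rich factor, also changed its leading model but fell short of 80%. Its model 2 held 84.1% and 76.9% of unique reads in A. halleri, while model 1 held 52.3% and 54.2% in A. thaliana. GRP7, GRP8, PTB1, RS2Z32, RS2Z33 and RS40 were the other 6. GRP8 (AT4G39260) had model 1 at 98.0% in each A. thaliana library, whereas its A. halleri libraries led with different models at 35.8% and 39.5%.

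Replicates 1 and 2 of A. halleri held 16335761 and 15497893 total reads, and those of A. thaliana 18127031 and 22762183. The unique reads made up 69.5% to 69.8% of each library. Of 10 root marker genes all had reads in all 4 libraries, with a summed level of 1641 and 1595 CPM per total reads in A. halleri libraries, against 1812 and 1765 in A. thaliana libraries. By edgeR 4 of these were called higher in A. halleri, 2 lower and 4 not, from log2 2.94 for RHS19, a gene of root hairs, to log2 -1.78 for NRT2.1, a nitrate transporter. The 8 shoot and flower markers summed to 82.9 and 115 CPM in A. halleri libraries, against 13.6 and 11.8 in A. thaliana libraries, with 4 of them read in all 4 libraries. Most of that sum was PSBO1, a protein of photosystem II, at 64.4 and 79.0 CPM in A. halleri libraries, against 7.56 and 6.41 in A. thaliana libraries. AP1, a flower regulator, went the other way, with 0 reads in both A. halleri libraries and 21 and 30 in A. thaliana libraries. LFY and FAMA, regulators of flowers and of stomata, had 0 reads in every library. Their part in the model shares was not tested.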

How the data were processed

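TRIzol was used for root RNA and an Illumina kit for the libraries, per the labels' protocols. The deposited tables give, per the file headers, read counts (unique and total) for each transcript model, its length, and RPKM, scaled by the authors for length and library size. The submitters' processing notes name TAIR 10, and the aligner and counter were not given in the sources used here.

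Shares were unique reads of a model over those of its locus. Members and lists were chosen with earlier results of these data known. Total counts were summed per locus and tested with edgeR 4.0.16 (quasi-likelihood F test, TMM, default filter, species as the only term, Benjamini-Hochberg adjustment, threshold 0.05) in R 4.3.3, a procedure tested on simulated data. Far fewer loci changed in the simulated data than were called here. The replicates are labelled biological, and the labels do not say what was separate, so errors measure the spread between these 2 libraries per species. Models were compared by intron in the TAIR10.1 annotation, because equal lengths, the planned condition, held for both models at 1 member. Transcripts were compared with BLAST 2.17.0. All 12 members are named and given with values in every library; the planned rule named at most 12 with the most unique reads, members with different coding sequences, loci nearest the threshold and members of the lists. Alternatives were other thresholds, reads, scalings, DESeq2 1.42.0, the replicate block and each library left out.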

Additional observations from a re-analysis of the deposited data

How the results depend on the processing

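The number of loci whose main model differs was 12, and 7 of them met a share of 90% and 5 a minimum of 200 unique reads, where fewer loci can pass by construction. It was 16 at a share of 70%, 15 with 50 unique reads and 12 to 13 with a library left out. These settings only loosen the rule, so that all 12 pass them by construction. The number was 12, with the same loci, for total reads and for unique reads per kilobase, which rest on much the same reads. The median difference in main-model share was 1.42 points with 50 unique reads and 0.499 with 200, against 0.857, and ran from 0.887 to 1.07 with a library left out. Loci called from locus totals ran from 13763 to 16001 over the alternatives (13615 to 14259 with a library left out), and members called lower from 6 to 7. Members called higher numbered 1, but 0 with DESeq2 size factors in edgeR (1 at an unadjusted p under 0.05), 0 by DESeq2 (0 unadjusted), 0 with no filter on low counts (1 unadjusted), 3 with unique reads, and 0 to 2 with a library left out (0 to 3 unadjusted). With unique reads the log2 difference of AT2G22425 was 0.32 in place of -0.22, and that of AT3G01340 was -0.48 in place of 0.25. The cause was not tested. The replicate numbers are not said to mark a shared batch, and same-numbered libraries did not deviate together (correlation -0.05 across loci). With the replicate block 14819 loci were called, 0 members higher (1 unadjusted) and 7 lower. The minimum of 100 unique reads, which depends on depth and on how far the models of a locus differ, let 1142 of 5885 loci with 2 or more models be judged.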
